A study of Mus musculus with 14 samples.

Results

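The gene set described here holds 33 genes of fatty acid and triglyceride synthesis in mouse liver: the transcriptional regulators of lipogenesis, the enzymes that supply its substrates, build, elongate, desaturate and activate fatty acids, and the enzymes that assemble them on glycerol. Accessible intervals were assigned to a gene if their midpoint lay inside its bounds, and otherwise to whichever protein-coding gene lay nearest, up to 50000 bp away (mm10 coordinates, RefSeq annotation of GRCm38.p6, 21900 protein-coding genes). By this rule 32 of the 33 genes held intervals in both tables: 553 of 88203 intervals in the chow table and 720 of 105801 in the high-fat table. No interval was assigned to Slc25a1, the mitochondrial citrate carrier, and it is not analysed here.

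Chromatin accessibility was measured by ATAC-seq, in which a transposase cuts and tags open DNA, in liver nuclei of 14 female mice. LKO mice carry floxed alleles of Matr3, the gene of the nuclear matrix protein matrin-3, together with an Albumin-Cre transgene, whose albumin promoter is active in hepatocytes. The flox mice are littermates with the floxed alleles alone, so both groups carry floxed Matr3. From 7 weeks of age and for 16 weeks, HFD LKO (4 mice) and HFD flox (4 mice) received a diet with 60 kcal% fat, and chow LKO (3 mice) and chow flox (3 mice) received chow. The series' design text has the HFD mice fasted for 12 h and does not say how the chow mice were fed before collection. The sample titles number single females, so each library was read as 1 animal, and p-values measure the spread between these livers. The sources used here do not state which stretch of Matr3 was removed, so its 7 intervals in each table, with an edgeR adjusted p of 0.228 or more, do not test the genotype labels.

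Hepatocytes make fatty acids from acetyl-CoA when insulin and carbohydrate are plentiful, and esterify them to glycerol 3-phosphate for storage or export. The transcription factors SREBP-1c (Srebf1) and ChREBP (Mlxipl) drive most genes of the route, insulin acting mainly through the first and glucose through the second. Fasting lowers the programme, and Fasn and Thrsp are textbook diet-responsive genes of liver.

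Reads in intervals totalled 15531451 to 34981046 per chow library and 7586621 to 10396084 per HFD library. In the chow table both libraries numbered 2 were shallower than the rest (15531451 reads in LKO 2 and 17138347 in flox 2). On the first principal component of the HFD table the genotypes overlapped. Flox 3 (18.6) lay within the LKO range (-5.03 to 69.8). LKO 1 (-5.03) was the LKO library nearest to the other flox libraries (-71.4 to -38.8). All 10 hepatocyte markers examined held intervals. The tables hold different intervals, so levels are compared between genotypes within a diet and never between diets. Levels are in CPM, the counts scaled by edgeR's TMM factors to a common library size. Fold changes are log2 of LKO over flox with their standard error (SE), and a call is a Benjamini-Hochberg adjusted p under 0.05 over all intervals of the table in edgeR's quasi-likelihood test. In bulk liver, fewer open alleles per cell and fewer hepatocytes cannot be told apart.

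On the high-fat diet, LKO livers were less accessible than flox livers at single intervals of Fasn, Thrsp, Fads2, Aacs, Dgat2 and Elovl6 and more accessible at intervals of Lpin1, while Lpin2 held intervals of both kinds. Of 720 intervals of the gene set 14 were called lower (1.94%), against 0.303% of all HFD intervals, and 8 were called higher (1.11%), against 0.448% of all. In either direction the gene set held 22 calls (3.06%), against 0.751% of all intervals. The genes were chosen with earlier results of these data known, so these shares describe the set and do not test it. At an unadjusted p under 0.05 the set held 121 lower (4.8% of all HFD intervals were) and 91 higher (5.41% of all were), together 29.4% of the set, against 10.2% of all. Intervals of 1 gene come from the same livers and are not independent, and a few genes held many of them. Lpin1 held 50 of the 91 higher ones and 6 of the 8 higher calls, and Fads2 and Dgat2 each held 25 of the 121 lower ones. The groups did not overlap at 8.06% of the gene set's intervals, against 5.30% of all HFD intervals, and at 16 of the 22 called ones. Its median log2 fold change was -0.05, beside 0.00 over all intervals.

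**Figure D1:**
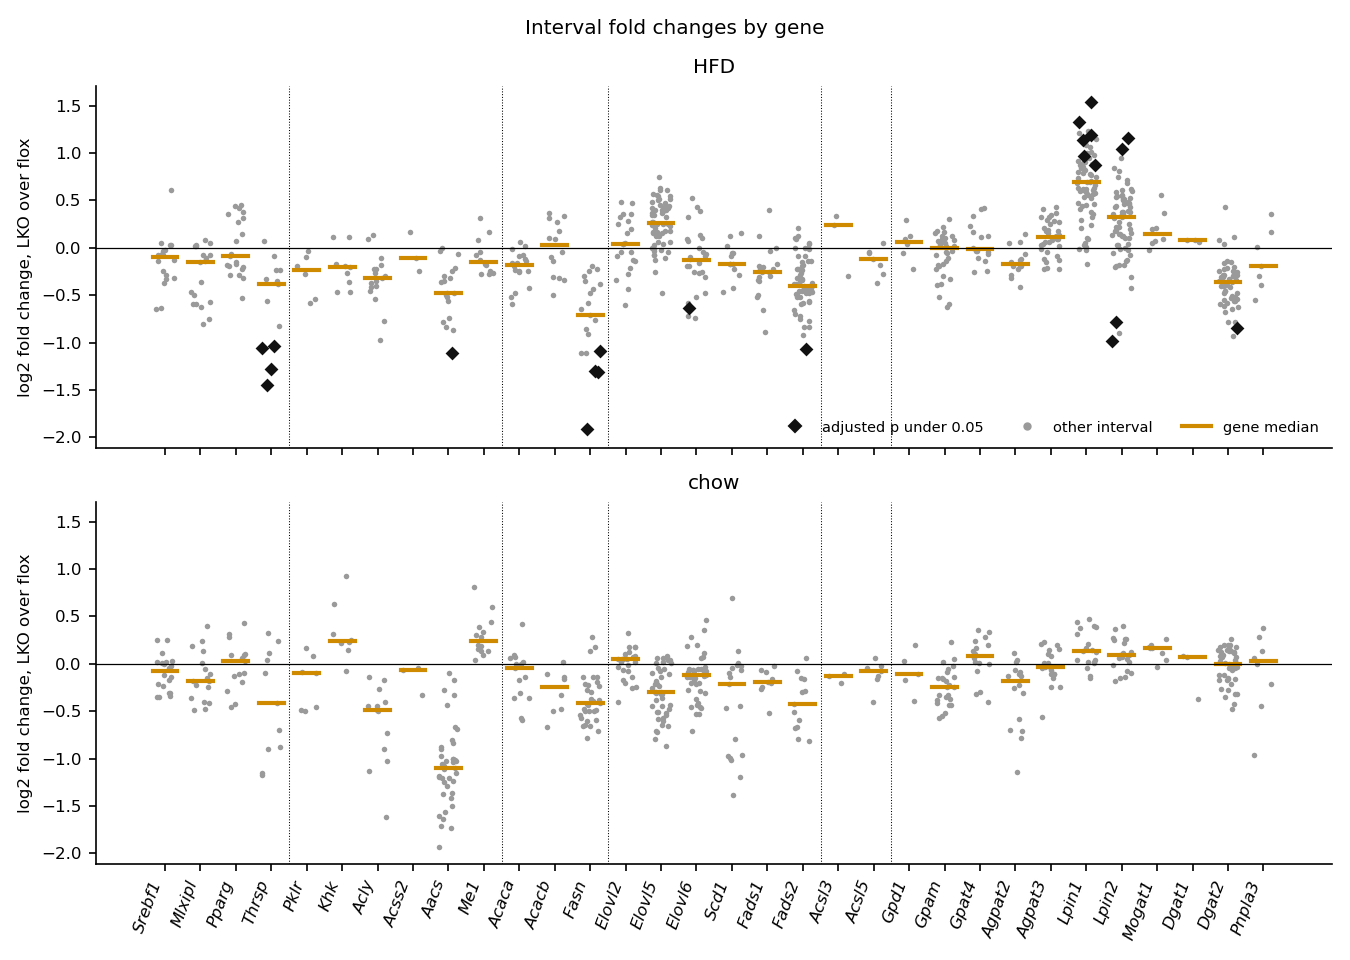
Log2 fold change (LKO over flox, vertical axis) of every interval of 32 genes in the HFD (upper) and chow (lower) tables, with genes in the order of their roles between dotted lines; bars mark gene medians and black diamonds the intervals with an adjusted p under 0.05. The 22 diamonds, all on the high-fat diet, lie below 0 for Thrsp, Aacs, Fasn, Elovl6, Fads2 and Dgat2, above 0 for Lpin1 and on both sides for Lpin2.

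Among the regulators, the calls lay in Thrsp, which encodes a small acidic protein (Spot 14) that is induced with the lipogenic enzymes. Its interval of smallest p (chr7:97412254-97412754, 179 bp beyond the far bound of the gene) held 5.58, 3.53, 2.48 and 4.29 CPM in HFD LKO livers 1 to 4, against 14.4, 12.9, 5.40 and 6.11 CPM in HFD flox livers 1 to 4. Flox 3 lay just below LKO 1 and flox 4 just above it, so the groups overlapped by 1 library. The log2 fold change was -1.28 (SE 0.28, edgeR adjusted p = 0.0177). The neighbouring interval at the same bound (chr7:97412779-97413279) held 1.93, 2.65, 1.57 and 1.52 CPM in LKO, against 7.64, 5.36, 4.90 and 3.23 CPM in flox, without overlap (-1.45, SE 0.32, edgeR adjusted p = 0.0186). A pair of intervals inside the gene was lower as well, with log2 fold changes of -1.06 and -1.04. The 4 called intervals lay 2223 to 5046 bp after the annotated start, and 12 of its 13 HFD intervals had a negative fold change. Srebf1, Mlxipl and Pparg, the nuclear receptor of adipocyte lipid storage, held no call in 18, 19 and 21 intervals. Their median log2 fold changes were -0.10, -0.15 and -0.08. At an unadjusted p under 0.05, 6 Mlxipl intervals were lower and 0 higher. Within 1000 bp of a gene bound, the most accessible Srebf1 interval held 20.2, 17.3, 18.9 and 12.1 CPM in HFD LKO, against 15.1, 19.6, 20.9 and 16.7 CPM in HFD flox (-0.07, SE 0.16). That of Mlxipl held 17.3, 14.01, 12.0 and 18.1 CPM in HFD LKO, against 15.7, 18.3, 12.1 and 14.1 CPM in HFD flox (0.02, SE 0.16). The groups overlapped in both. That of Pparg held 27.1, 27.2, 26.8 and 39.3 CPM in HFD LKO, against 30.0, 33.6, 39.1 and 33.99 CPM in HFD flox (-0.18, SE 0.13). LKO 4 and flox 3 were the highest there.

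Among the genes of substrate supply, Aacs, which encodes the cytosolic ligase that turns acetoacetate into acetoacetyl-CoA for lipid synthesis, held the 1 call in 66 intervals. This interval (chr5:125498701-125499201, inside the gene) held 4.72, 2.65, 4.18 and 1.89 CPM in HFD LKO, against 8.65, 9.07, 5.53 and 5.76 CPM in HFD flox. Every LKO library lay below every flox library. The log2 fold change was -1.11 (SE 0.27, edgeR adjusted p = 0.0374), and 18 of the gene's 19 intervals had a negative value. Acly, the enzyme that splits citrate into acetyl-CoA, had a median of -0.31 over 17 intervals and no call. Its most accessible gene-end interval held 33.7, 25.9, 35.4 and 27.5 CPM in HFD LKO, against 29.9, 33.5, 30.7 and 37.8 CPM in HFD flox (-0.11, SE 0.12). The groups overlapped. Pklr (liver pyruvate kinase), Khk (fructokinase), Acss2 (acetyl-CoA synthetase) and Me1 (malic enzyme, a source of NADPH) had medians between -0.24 and -0.11 with no call. At the start of Khk the interval held 30.7, 22.2, 22.1 and 21.2 CPM in HFD LKO, against 29.6, 28.9, 20.7 and 31.3 CPM in HFD flox (-0.20, SE 0.14). LKO 1 and flox 1, 2 and 4 formed the upper values.

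Fasn, the fatty acid synthase, held the called interval with the lowest fold change of the gene set. At its far bound (chr11:120804690-120805190, 768 bp beyond the gene) HFD LKO livers 1 to 4 held 2.47, 1.21, 1.31 and 1.89 CPM, against 7.64, 6.14, 5.03 and 7.37 CPM in HFD flox livers 1 to 4. The highest LKO value was below the lowest flox value by more than the range within LKO. The log2 fold change was -1.91 (SE 0.29, edgeR adjusted p = 0.000631). The next interval downstream (chr11:120804183-120804683) held 4.72, 2.54, 3.003 and 3.16 CPM in LKO, against 7.42, 8.19, 7.54 and 10.1 CPM in flox (-1.30, SE 0.23, edgeR adjusted p = 0.00426). Another interval beyond the gene (chr11:120802798-120803298) was lower with a log2 fold change of -1.09, and one in its body (chr11:120819484-120819984), where flox 3 lay within the LKO range, with one of -1.31. All 21 Fasn intervals had a negative fold change, with a median of -0.71, and at 6 of them the groups did not overlap. Acaca and Acacb, the acetyl-CoA carboxylases of cytosol and mitochondrial surface, held no call, with medians of -0.18 over 18 and 0.02 over 14 intervals. Acaca held no interval within 1000 bp of a gene bound, and its most accessible interval, inside the gene, held 63.95, 59.1, 59.9 and 67.3 CPM in HFD LKO, against 62.9, 64.5, 59.0 and 66.5 CPM in HFD flox (-0.02, SE 0.09). These values were nearly level across the 8 livers.

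Among elongases and desaturases the calls lay in Fads2, the delta-6 desaturase of polyunsaturated fatty acids, and Elovl6, the elongase of palmitate. The Fads2 interval (chr19:10085862-10086362, inside the gene) held 5.37, 5.96, 4.83 and 5.56 CPM in HFD LKO, against 9.78, 9.95, 11.2 and 14.8 CPM in HFD flox, again without overlap. The log2 fold change was -1.07 (SE 0.20, edgeR adjusted p = 0.00469). Of 59 Fads2 intervals 51 had a negative value and 25 were lower at an unadjusted p under 0.05, with none higher. The Elovl6 interval (chr3:129533595-129534095) held 13.6, 16.9, 13.97 and 14.02 CPM in LKO, against 16.8, 23.0, 22.4 and 28.7 CPM in flox. LKO 2 lay just above flox 1, and the log2 fold change was -0.63 (SE 0.15, edgeR adjusted p = 0.0374). Scd1, the stearoyl-CoA desaturase, and Fads1, the delta-5 desaturase beside Fads2, had medians of -0.17 and -0.25 with no call. The most accessible gene-end interval of Scd1 held 9.66, 7.39, 8.10 and 6.69 CPM in HFD LKO, against 13.2, 10.7, 7.41 and 12.8 CPM in HFD flox (-0.47, SE 0.20). Flox 3 lay within the LKO range. Elovl5 and Elovl2, elongases of polyunsaturated fatty acids, had medians of 0.26 over 62 and 0.04 over 22 intervals, and 11 Elovl5 intervals were higher at an unadjusted p under 0.05 and 1 lower. At its start Elovl5 held 23.7, 18.1, 16.7 and 20.1 CPM in HFD LKO, against 12.7, 15.4, 19.6 and 22.01 CPM in HFD flox (0.18, SE 0.16). Flox 1 and 2 lay below every LKO liver and flox 3 and 4 did not. In fatty acid activation, Acsl3 and Acsl5 (acyl-CoA synthetases) held 10 intervals and no call.

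The genes of glycerolipid assembly held all 8 higher calls and 3 lower ones in 317 intervals. Lpin1 and Lpin2 encode lipins, phosphatidate phosphatases that make diacylglycerol, and lipin-1 also acts as a coactivator of fatty acid oxidation genes in liver. The Lpin1 interval of smallest p (chr12:16620101-16620601) held 11.6, 13.6, 13.1 and 18.9 CPM in HFD LKO, against 7.64, 8.48, 8.42 and 6.57 CPM in HFD flox. The groups did not overlap, and the log2 fold change was 0.87 (SE 0.18, edgeR adjusted p = 0.013). The largest change (chr12:16533860-16534360, 1309 bp beyond the far bound) was 1.53 (SE 0.32, edgeR adjusted p = 0.0143), with 4.94, 3.64, 6.92 and 14.3 CPM in LKO, against 2.81, 2.73, 2.89 and 1.73 CPM in flox. LKO 4 was far above the other LKO livers there. Of 73 Lpin1 intervals 70 had a positive value and 50 were higher at an unadjusted p under 0.05, with none lower.

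Lpin2 changed in both directions within 1 gene. Near an annotated start inside the gene, the interval at chr17:71206458-71206958 held 5.47, 7.28, 4.44 and 10.7 CPM in HFD LKO, against 13.0, 15.2, 13.95 and 12.8 CPM in HFD flox (-0.98, SE 0.21, edgeR adjusted p = 0.0134). Its neighbour (chr17:71205946-71206446) was lower with a log2 fold change of -0.79. Further along the gene, the interval at chr17:71231915-71232415 held 9.23, 8.82, 7.31 and 7.07 CPM in LKO, against 4.72, 4.88, 2.76 and 2.07 CPM in flox (1.16, SE 0.25, edgeR adjusted p = 0.0161), and another at chr17:71240870-71241370 was higher by 1.047 on the log2 scale. In none of these 4 did the groups overlap. In a split chosen after the values were seen, all but 2 of the 44 intervals lying more than 28 kb from the gene's 5′ bound were above 0, with a median of 0.47.

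Dgat2, which with Dgat1 attaches the last fatty acid of triglyceride, held 1 call in 51 intervals. It held 8.69, 9.93, 4.44 and 6.57 CPM in HFD LKO, against 16.6, 14.9, 9.93 and 12.2 CPM in HFD flox at chr7:99179030-99179530. The highest LKO and the lowest flox value met, and the log2 fold change was -0.85 (SE 0.21, edgeR adjusted p = 0.0443). Of its intervals 47 had a negative value, and 25 were lower at an unadjusted p under 0.05. The remaining genes of this step held no call: Gpam and Gpat4 (glycerol 3-phosphate acyltransferases), Agpat2 and Agpat3 (acyltransferases of the next step), Mogat1 (monoacylglycerol acyltransferase), Dgat1, Gpd1 (a source of glycerol 3-phosphate) and Pnpla3 (a lipid droplet protein). Their medians ranged from -0.19 for Pnpla3 to 0.15 for Mogat1. Near its start Pnpla3 held 18.4, 16.6, 11.6 and 20.7 CPM in HFD LKO, against 20.3, 27.2, 16.3 and 24.1 CPM in HFD flox (-0.39, SE 0.16). The most accessible gene-end interval of Gpam held 10.9, 13.6, 12.4 and 11.2 CPM in HFD LKO, against 19.1, 13.5, 11.9 and 10.6 CPM in HFD flox (-0.20, SE 0.18). The groups overlapped in both. In the genes of the set with a gene-end interval and no call, the log2 fold change of the most accessible one lay between -0.47 (Scd1) and 0.18 (Elovl5).

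**Figure D2:**
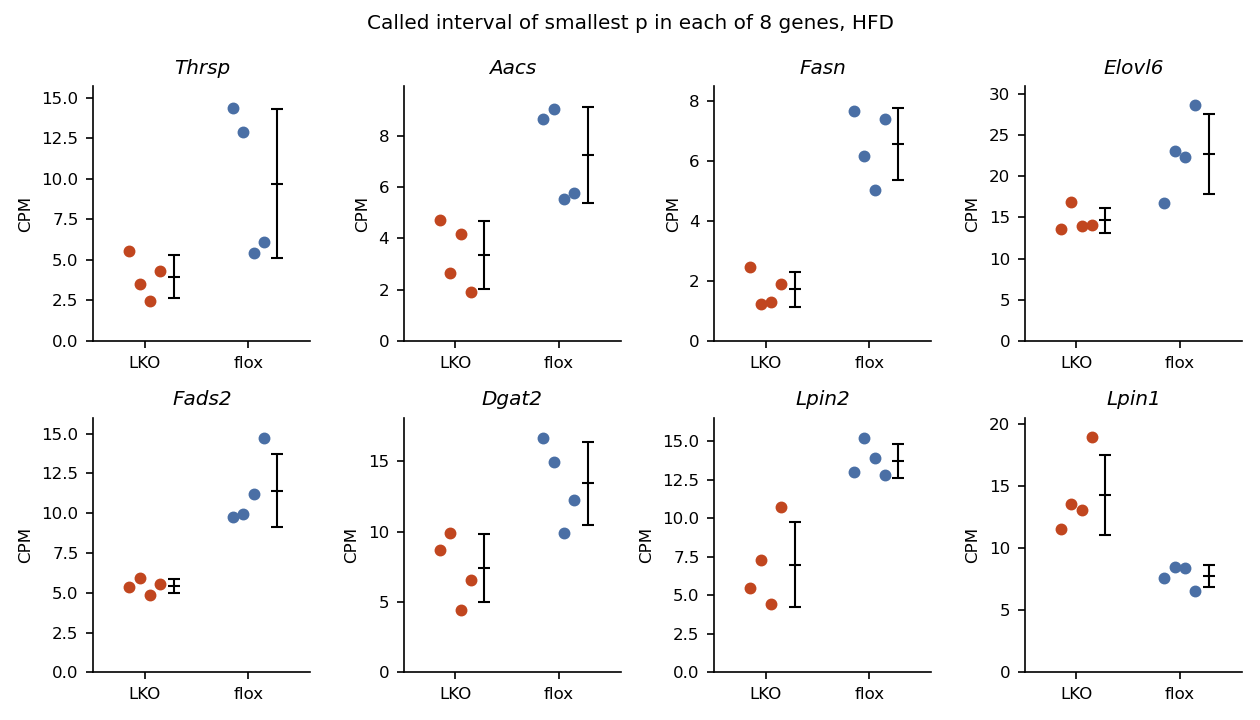
CPM (vertical axis, from 0) in each HFD library of the called interval of smallest p in 8 genes, LKO left and flox right; points are single livers and bars the mean with SD (n = 4 each). Fads2 held 4.83 to 5.96 CPM in LKO and 9.78 to 14.8 CPM in flox, Fasn is separated in the same direction, and Lpin1 is the 1 gene of the 8 with LKO above flox.

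Most calls ended when 1 library was left out. Of the 22 called intervals 3 kept an adjusted p under 0.05 whichever library was left out, the Fasn intervals at chr11:120804690-120805190 and chr11:120804183-120804683 and the Fads2 interval. Leaving out LKO 4 ended 17 calls, LKO 3 ended 16, flox 2 and flox 4 ended 14 each, flox 1 ended 9, LKO 2 ended 7, flox 3 ended 5 and LKO 1 ended 3. With 1 library left out, the largest edgeR adjusted p was 0.107 for the named Thrsp interval (without flox 2), 0.185 for Aacs (LKO 4), 0.258 for Elovl6 (flox 4) and 0.205 for Dgat2 (LKO 3). For the Lpin2 intervals it was 0.0806 at chr17:71206458-71206958 (LKO 3), 0.205 at its lower neighbour (LKO 4), 0.0902 at chr17:71231915-71232415 (flox 4) and 0.135 at chr17:71240870-71241370 (LKO 3). It was 0.113 and 0.243 for both named Lpin1 intervals (LKO 4). The count of lower calls was 26 without LKO 1 and 27 without flox 3. It was 3 and 5 without LKO 3 or LKO 4, and 7, 4 and 8 without flox 1, flox 2 or flox 4. The count of higher calls was 13, 3 and 1 without LKO 2, LKO 3 or LKO 4, 22, 5 and 4 without flox 1, flox 2 or flox 3, and 0 by edgeR without flox 4 (75 at an unadjusted p under 0.05). With all 8 libraries DESeq2 gave 9 higher and 14 lower calls and limma-voom 2 and 8.

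When all intervals of a gene were summed, each gene gave 1 value per library. Over these sums edgeR called 56 of 16280 genes on the high-fat diet (0.344%), and 1 of the 32 genes of the set, Fasn. Fasn summed to 131, 121, 102 and 100.2 CPM in HFD LKO 1 to 4, against 192.7, 178, 127.7 and 189.8 CPM in HFD flox 1 to 4. Flox 3 lay below LKO 1, and the other flox livers above every LKO liver. The log2 fold change was -0.60 (SE 0.12, edgeR adjusted p = 0.0248), and the call ended without LKO 2, 3 or 4 or without flox 1, 2 or 4 (adjusted p = 0.0509 to 0.151). Thrsp summed to 99.2, 95.2, 85.4 and 79.9 CPM in LKO, against 145, 159, 98.4 and 113 CPM in flox (-0.52, SE 0.12, edgeR adjusted p = 0.0748; DESeq2 and limma-voom gave 0.0183 and 0.0392). Lpin1 summed to 595, 484, 566 and 832 CPM in LKO, against 539, 480, 337 and 306 CPM in flox (0.58, SE 0.17, edgeR adjusted p = 0.179). LKO 4 stood highest and flox 3 and 4 lowest, while flox 1 lay within the LKO range and flox 2 just below it. Aacs summed to 178, 155, 123 and 143 CPM in LKO, against 216, 237, 144 and 176 CPM in flox (-0.37, SE 0.13, edgeR adjusted p = 0.293). Dgat2 summed to 731, 596, 483 and 506 CPM in LKO, against 811, 881, 560 and 727 CPM in flox (-0.36, SE 0.14, edgeR adjusted p = 0.347). In both, flox 3 and 4 lay within the LKO range. Of the 32 genes 22 had a negative value, with a median of -0.14, beside 0.00 over all genes. At an unadjusted p under 0.05, 10 were lower (5.01% of all genes were) and 1 higher (4.98% of all were), 34.4% against 9.99% of all. The sums of LKO and flox livers overlapped in every gene of the set, so 0 of the 32 were without overlap, against 5.08% of all genes.

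**Figure D3:**
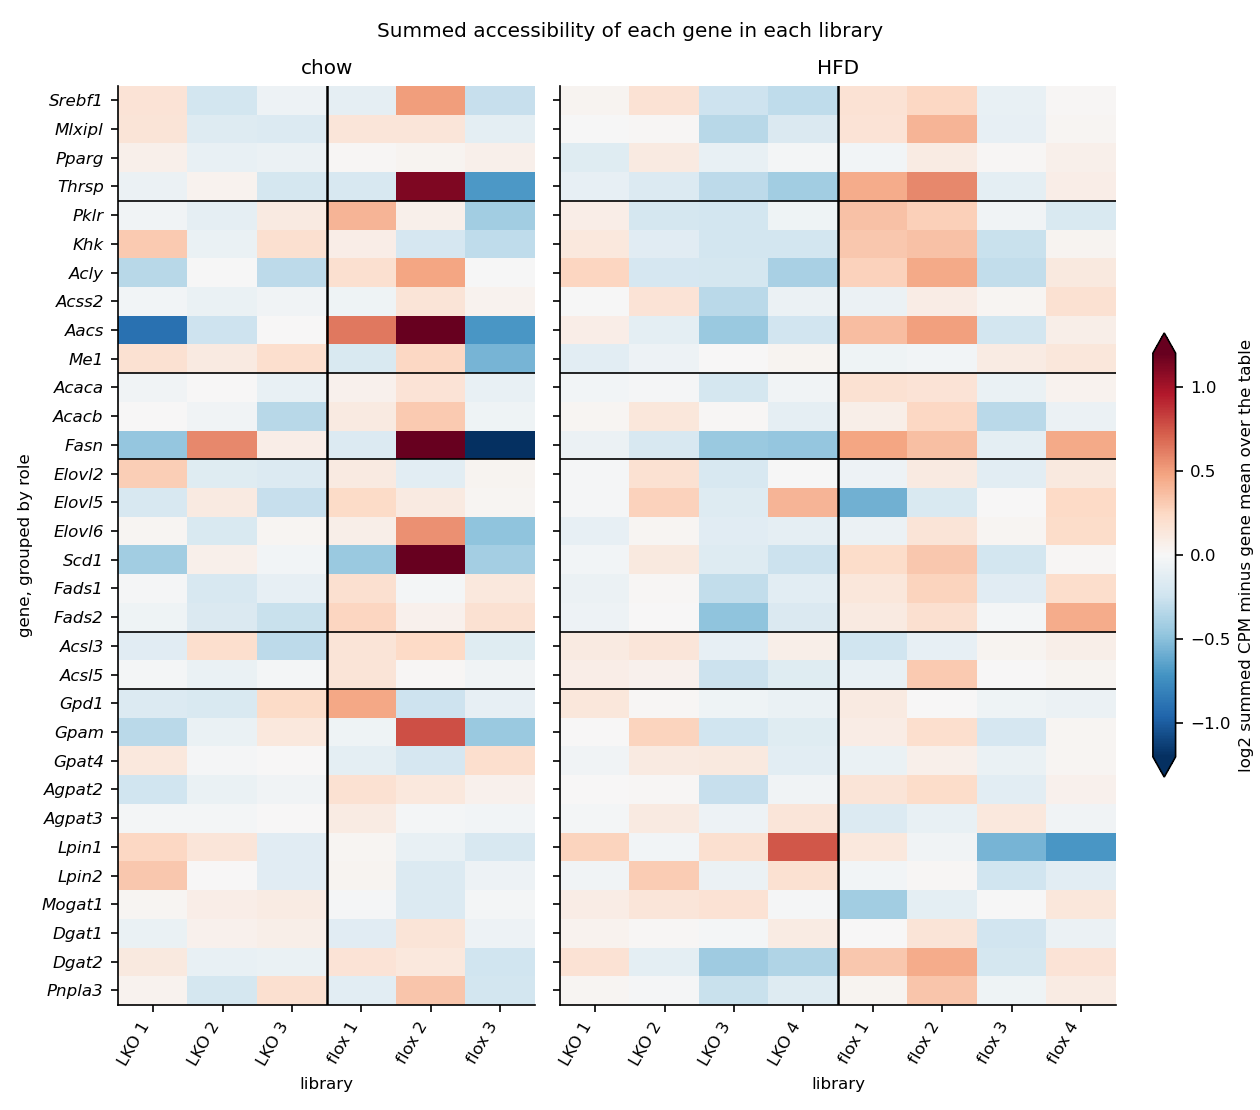
Summed CPM per gene and library on a log2 scale, minus the gene's mean over the table, for chow (left) and HFD (right), with LKO left of flox in each, black lines between roles and the darkest colours also standing for values beyond the scale. On the high-fat diet Fasn and Thrsp are darkest blue in LKO 3 and 4 and red in flox 1 and 2, Lpin1 is red in LKO 4, and on chow flox 2 is dark red at Fasn, Scd1, Aacs and Thrsp while flox 3 is dark blue at Fasn.

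The 22 calls lay in gene bodies and at or beyond far bounds. Some were near a start: the Elovl6 call lay 1459 bp after an annotated start and the lower Lpin2 calls 1542 and 2054 bp. By edgeR the 22 calls included 0 of 59 HFD intervals within 1000 bp of an annotated start of a gene of the set (6 lower and 2 higher at an unadjusted p under 0.05, together 13.6%, against 5.76% of all HFD intervals at annotated starts), and 3 lower and 1 higher of 21 within 1000 bp of its far bound. Over all HFD intervals, 15 higher and 4 lower of 16716 at annotated starts and 36 higher and 32 lower of 3306 at far bounds were called. These classes need the strand, which was read from RefSeq promoter windows after the data were seen and is missing for Scd1, Fads1, Dgat1, Dgat2, Gpat4 and Gpd1. Without strand, the 90 intervals of the set within 1000 bp of either bound had a median of -0.14 and the other 630 one of -0.04, beside 0.00 and -0.01 over all HFD intervals. On chow the medians were -0.08 for the 85 gene-end and -0.14 for the 468 other intervals, beside 0.05 and -0.03 over all. Of genes with both classes, the gene-end median was below the other in 15 of 30 on the high-fat diet and 10 of 29 on chow.

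**Figure D4:**
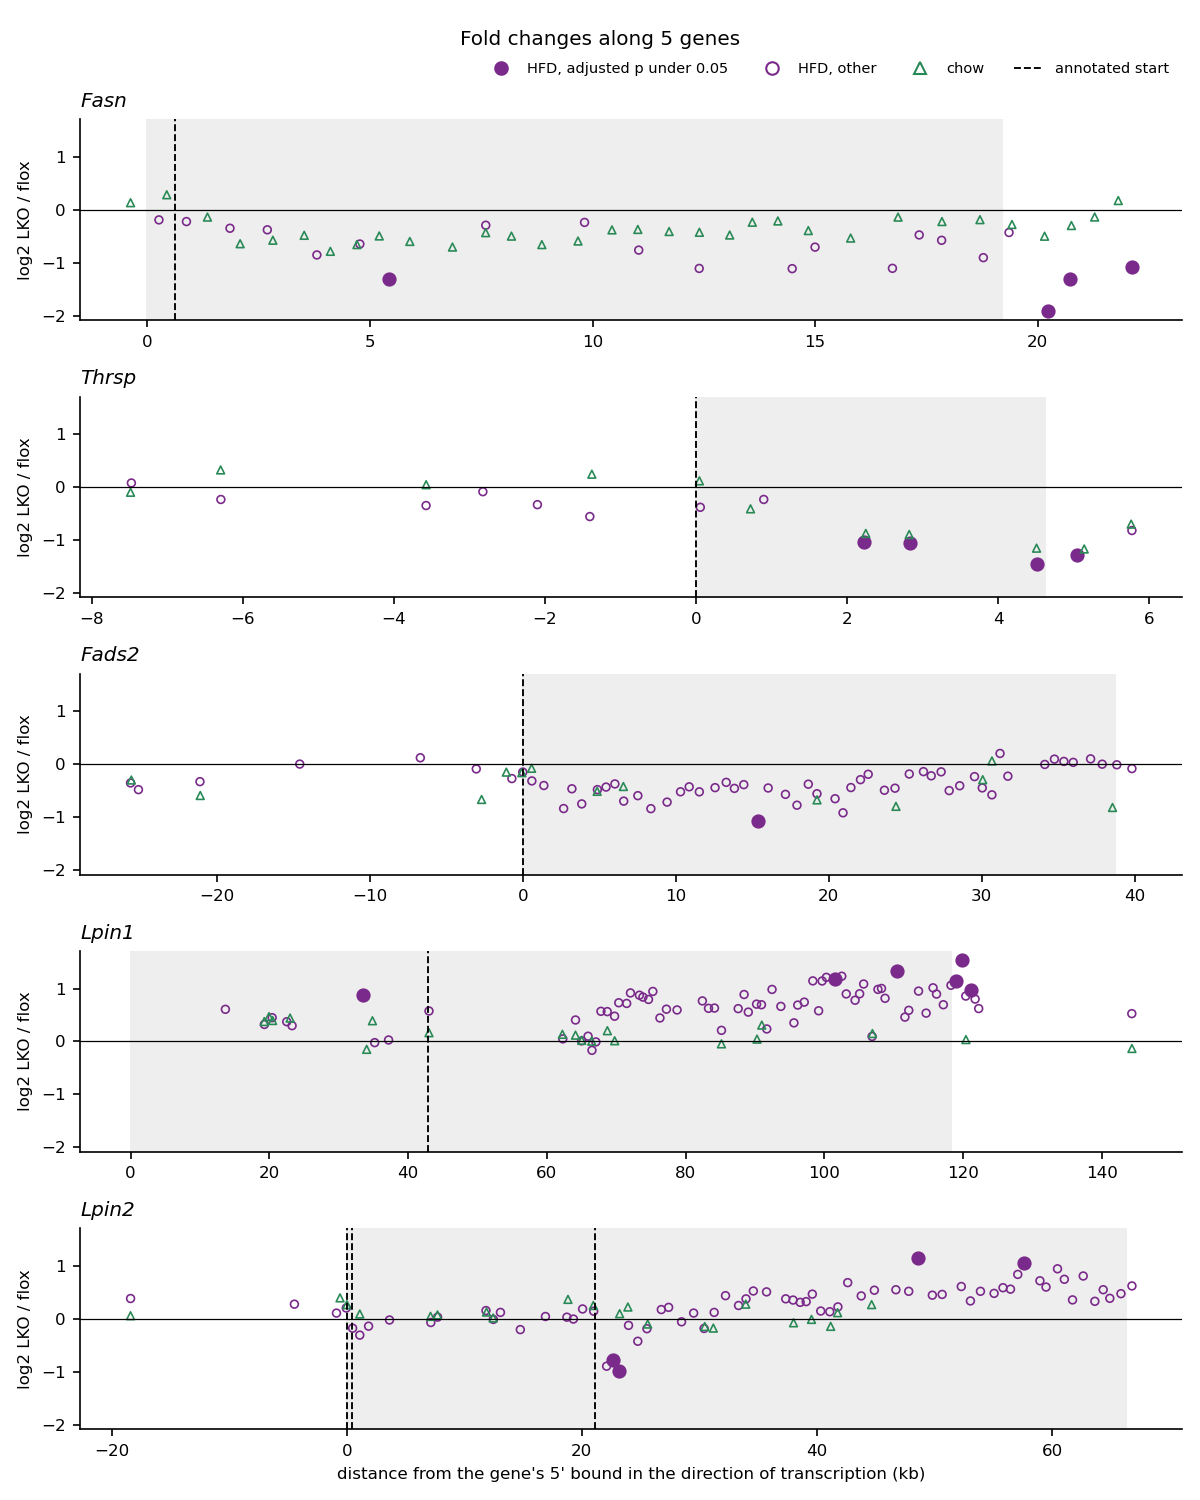
Log2 fold change (vertical axis) of each interval against the distance of its midpoint from the gene's 5′ bound in kb, in the direction of transcription, for Fasn, Thrsp, Fads2, Lpin1 and Lpin2; grey marks the gene, circles are HFD and triangles chow, and filled symbols have an adjusted p under 0.05. The filled Fasn and Thrsp circles lie at -1.04 to -1.91, some inside the gene and others at or beyond its downstream end. Lpin1 is above 0 in 70 of 73 HFD intervals, and Lpin2 passes from below 0 just after its inner start to above 0 further on.

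The promoters of 4 of the genes with calls are shown because open chromatin was measured over them and did not pass the test. Each is 300 bases from RefSeq (GRCm38.p6), from 250 before to 50 after the annotated start, on the minus strand and written 5′ to 3′, with motif matches in capitals: CCAAT (the CCAAT box, read as ATTGG where it lies on the other strand) in Fasn and Thrsp, and GGGCGG (the GC box) in Fads2.
Fasn, chr11:120824498-120824797: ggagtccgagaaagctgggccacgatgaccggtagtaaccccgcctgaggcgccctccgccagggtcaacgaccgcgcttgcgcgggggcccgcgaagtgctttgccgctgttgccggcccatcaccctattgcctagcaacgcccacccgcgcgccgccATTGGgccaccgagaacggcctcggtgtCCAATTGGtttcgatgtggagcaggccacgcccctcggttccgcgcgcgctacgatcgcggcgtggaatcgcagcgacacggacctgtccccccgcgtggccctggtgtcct
Thrsp, chr7:97417501-97417800: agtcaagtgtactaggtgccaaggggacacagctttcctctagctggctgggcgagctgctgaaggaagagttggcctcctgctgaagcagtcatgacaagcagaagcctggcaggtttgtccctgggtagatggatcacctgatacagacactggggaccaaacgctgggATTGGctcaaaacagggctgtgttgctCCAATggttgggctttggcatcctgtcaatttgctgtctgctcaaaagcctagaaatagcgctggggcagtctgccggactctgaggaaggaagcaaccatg
Fads2, chr19:10101454-10101753: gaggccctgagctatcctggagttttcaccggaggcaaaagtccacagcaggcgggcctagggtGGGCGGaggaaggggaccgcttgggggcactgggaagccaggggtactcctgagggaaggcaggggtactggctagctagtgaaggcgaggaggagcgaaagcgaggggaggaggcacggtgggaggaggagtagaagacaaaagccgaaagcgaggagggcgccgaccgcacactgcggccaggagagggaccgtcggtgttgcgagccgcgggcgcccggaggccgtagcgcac
Lpin1, chr12:16610917-16611216: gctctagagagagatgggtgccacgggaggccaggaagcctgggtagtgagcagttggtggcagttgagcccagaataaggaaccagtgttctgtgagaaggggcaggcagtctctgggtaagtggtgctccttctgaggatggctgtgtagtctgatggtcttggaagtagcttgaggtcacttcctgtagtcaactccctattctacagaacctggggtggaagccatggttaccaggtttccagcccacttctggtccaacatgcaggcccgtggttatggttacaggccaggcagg

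In Fasn, CCAAT boxes began 90, 62 and 59 bases before the start, the last pair overlapping, and in Thrsp 79 and 52 bases before it. Fads2 held 1 GC box 186 bases before its start, and the Lpin1 window, whose start lies inside the gene's bounds, held none of the motifs searched. Promoter windows were found for 27 of the 33 genes, 38 windows in all. On both strands CCAAT occurred in 20 of them (52.6%, against 37.4% of 32851 mouse windows), GGGCGG in 18 (47.4%, against 35.7%), the E-box CACGTG in 5 (13.2%, against 7.15%) and TCACNCCAC, the sterol regulatory element bound by SREBPs, in 1, that of Mlxipl (2.63%, against 1.24%). None of the 33 HFD intervals that overlapped these windows was called, with fold changes between -0.38 and 0.58, and none of 30 chow intervals. Of 2 HFD intervals over the Fasn window, that at chr11:120824038-120824538 reaches only its last bases. It held 28.3, 18.5, 28.2 and 21.6 CPM in LKO, against 30.7, 30.9, 21.9 and 29.2 CPM in flox (-0.22, SE 0.14, edgeR adjusted p = 0.631). The other (chr11:120824656-120825156) held 15.2, 13.5, 12.8 and 10.1 CPM in LKO, against 17.9, 13.2, 13.8 and 14.3 CPM in flox (-0.19, SE 0.16, edgeR adjusted p = 0.760). The groups overlapped in both. The chow interval over this window had a positive value (0.28, SE 0.16, edgeR adjusted p = 0.763). Over the Lpin1 window LKO held 7.08, 5.74, 5.48 and 5.05 CPM, against 4.05, 3.61, 4.27 and 3.80 CPM in flox (0.58, SE 0.23, edgeR adjusted p = 0.347), without overlap.

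On chow, edgeR called none of the 553 intervals of the gene set and 20 of all 88203 (0.0227%; 0.00113% higher and 0.0215% lower). At an unadjusted p under 0.05 the set held 50 lower intervals (3.77% of all were) and 10 higher (3% of all were), together 10.8%, against 6.77% of all. DESeq2 called 7 lower and 1 higher, in Aacs, Agpat2 and Khk, and limma-voom 7 lower and 2 higher. The groups did not overlap at 10.3% of the set's intervals and 11.7% of all chow intervals. Over summed counts no gene passed, of 32 in the set and 15932 in all; 5 of the set were lower (3.18% of all genes were) and 0 higher (3.4% of all were) at an unadjusted p under 0.05, and DESeq2 and limma-voom called 0 of the 32. The sums did not overlap for Fads2, Agpat2 and Mogat1, 9.38% of the set and 12.0% of all genes. Fads2 summed to 134, 123 and 115 CPM in chow LKO, against 166, 143 and 157 CPM in chow flox (-0.33, SE 0.09, edgeR adjusted p = 0.718). With the library number as a block the edgeR adjusted p for Fads2 was 0.0854.

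On chow the flox livers spread widely at several genes of the set. Fasn summed to 337, 690 and 489 CPM in chow LKO 1 to 3, against 415, 1451 and 145 CPM in chow flox 1 to 3. The flox livers thus spanned 9.98-fold, and all 3 LKO values lay between the highest and the lowest of them. The log2 fold change was -0.41 (SE 0.64, edgeR adjusted p = 0.847), and it was 0.85 without flox 2 and 0.09 with the library number as a block. Thrsp summed to 133, 145 and 121 CPM in LKO, against 123, 304 and 86.8 CPM in flox (-0.36, SE 0.37, edgeR adjusted p = 0.776). Scd1 summed to 143, 200 and 186 CPM in LKO, against 140, 449 and 144 CPM in flox (-0.47, SE 0.40, edgeR adjusted p = 0.738). In all 3 genes flox 2 stood above every other liver, and without it the sign turned positive (0.34 for Thrsp and 0.31 for Scd1).

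Aacs had the largest fold change of chow sums in the set. It summed to 158, 248 and 295 CPM in chow LKO, against 456, 678 and 181 CPM in chow flox, a log2 fold change of -0.91 (SE 0.40, edgeR adjusted p = 0.718), and all 41 of its intervals had a negative value. The fold change was -0.45 without flox 2 and -1.28 without flox 3. Flox 3 lay within the LKO range. Acly summed to 103, 130 and 105 CPM in LKO, against 149, 181 and 130 CPM in flox (-0.45, SE 0.14, edgeR adjusted p = 0.718). With the library number as a block the edgeR adjusted p for Acly was 0.0587. Flox 2 was the highest of all 6 chow libraries for 15 of the 32 genes, against 26.9% of all genes. Among the chow flox libraries, flox 3 was the lowest for 21 of the 32, against 36.8% of all genes. Flox 2 was also one of the shallow libraries and the lowest on the first principal component. The part of depth in its values was not tested.

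Without flox 2, edgeR called 4 chow intervals of the set: 1 of Agpat2 lower (-1.28, adjusted p = 0.0298), 1 of Me1 higher (1.22, adjusted p = 0.042) and 2 beyond the far bound of Fasn higher (2.62 and 2.04, adjusted p = 0.0274 and 0.0387). The direction at Fasn on chow therefore depended on 1 liver. Without both libraries numbered 2 the count was also 4, 3 higher and 1 lower, with 1 Fasn interval higher by 1.93 (edgeR adjusted p = 0.0344).

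**Figure D5:**
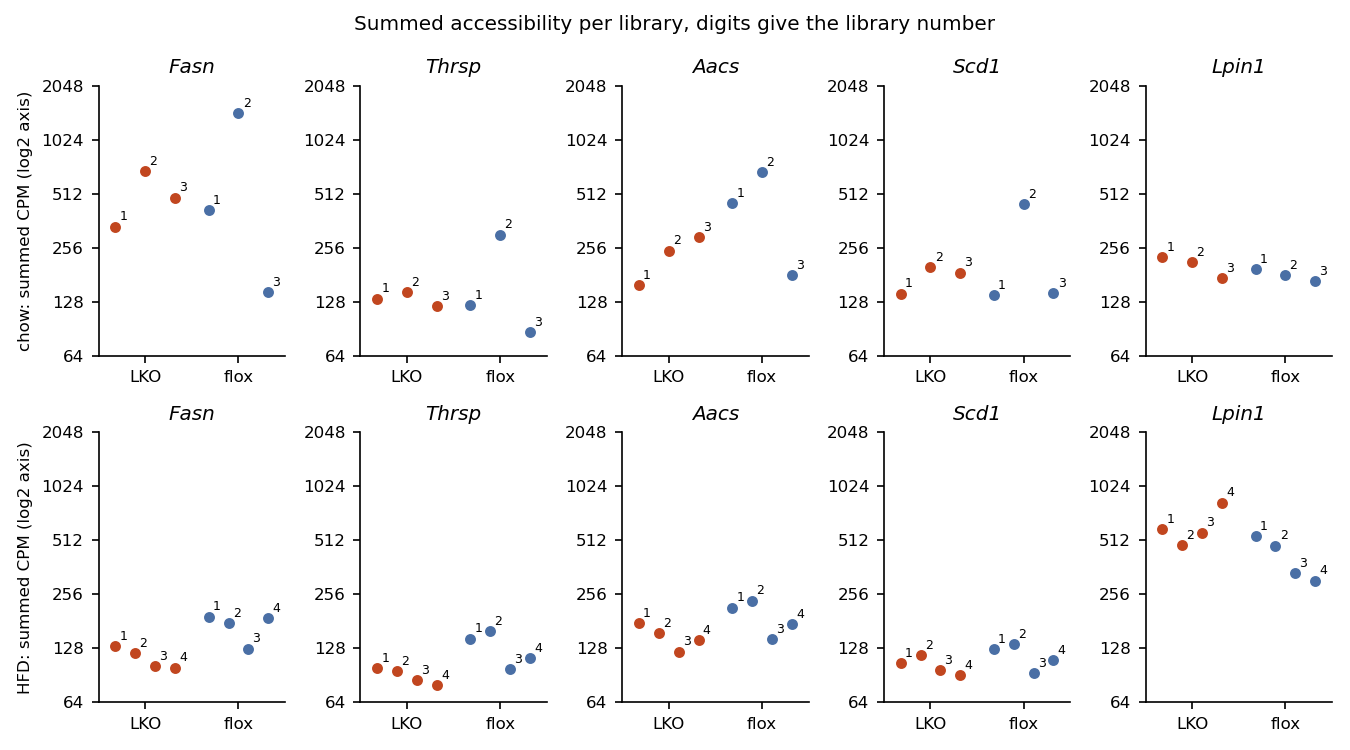
Summed CPM (log2 axis) of 5 genes in each library on chow (upper) and HFD (lower), LKO left and flox right, each point 1 liver with its number; the tables hold different intervals, so levels are not comparable between rows. Chow flox livers span 145 to 1451 CPM at Fasn, while on the high-fat diet Fasn spans 100.2 to 131 CPM in LKO and 127.7 to 192.7 CPM in flox.

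Whether the genotype effect differed between diets was tested on 73945 intervals matched between the tables, 418 of them in the gene set. A 12 h fast is recorded for the HFD mice only, and library depth also differed between the tables. Diet, fasting and depth cannot be told apart in this comparison. None of the 418 was called, against 0.183% of all (135 intervals; 0.134% higher and 0.0487% lower), where higher means a larger fold change on the high-fat diet. At an unadjusted p under 0.05, 26 were higher (3.97% of all were) and 16 lower (3.46% of all were), beside 7.44% of all in either direction. DESeq2 called 0 and limma-voom 2 higher and 2 lower. The smallest adjusted p was 0.161, at Elovl5, where 14 of 35 matched intervals had an unadjusted p under 0.05, all higher. Its medians over these intervals were 0.25 on the high-fat diet and -0.25 on chow. That interval (chr9:77951872-77952372) differed between diets by 1.43 (SE 0.37) and was the 1 interval of the set called with the replicate number as a block. Of the 22 HFD calls 9 had a matched chow interval, all of them lower on the high-fat diet, and the chow value was also negative in 8. Lpin2 at chr17:71206458-71206958 was the exception, at 0.09 on chow (SE 0.20), a difference of -1.05 (SE 0.31, edgeR adjusted p = 0.261). The 8 lay in Thrsp, Fasn and Aacs alone, and intervals of 1 gene are not independent. Chow sums of Fasn and Thrsp turned positive without flox 2 (0.85 and 0.34). Signs were the same in both diets at 56.7% of the set's matched intervals and 52.8% of all. At the Fasn far bound the chow value was -0.50 (SE 0.81) and the difference -1.40 (SE 0.94, edgeR adjusted p = 0.809). Without chow flox 2, 11 intervals of the set were called lower, 8 of Fasn and 3 of Thrsp, with the Fasn far bound at -3.53 (edgeR adjusted p = 0.000168). None of the 6 called Lpin1 intervals had a matched chow interval: Lpin1 held 73 intervals on the high-fat diet and 19 on chow. Of these 19, 16 had a positive value and 3 a negative one, with a median of 0.135 and no call. Over the 15 matched Lpin1 intervals the medians were 0.45 on the high-fat diet and 0.12 on chow.

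Genes of the same pathway outside the set were read from a list of 50, of which 49 held HFD intervals. Of its 704 HFD intervals 9 were called higher, against 0.448% of all, and 2 lower, against 0.303% of all. Insig2, which retains SREBPs in the endoplasmic reticulum and is induced by fasting, held 8 of the higher calls in 36 intervals. The one of smallest p (chr1:121304866-121305366) held 4.29, 9.16, 4.44 and 12.9 CPM in HFD LKO, against 2.70, 1.56, 3.39 and 3.46 CPM in HFD flox (1.48, SE 0.31, edgeR adjusted p = 0.0145, but up to 0.175 without LKO 4). Insig1, its relative that SREBPs induce, held both lower calls. The stronger held 4.19, 4.30, 4.57 and 3.41 CPM in LKO, against 4.38, 8.87, 10.9 and 19.4 CPM in flox (-1.40, SE 0.28, edgeR adjusted p = 0.0105, and 0.154 without flox 4). On chow the list held no call.

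Markers of liver cell types were read beside these results. On the high-fat diet 10 hepatocyte marker genes held 410 intervals. Of these 34 were called lower (0.303% of all HFD intervals were) and 1 higher (0.448% of all were), in Alb, Apob, Ttr and Tat. Their median log2 fold change was -0.13, beside -0.05 for the gene set. Their summed level was 3627 to 4768 CPM in LKO and 3687 to 6235 CPM in flox. Markers of Kupffer cells and macrophages (11 of 12 genes with intervals) summed to 276 to 298 CPM in LKO and 236 to 285 CPM in flox, with a median log2 fold change of 0.24 and no call. Adipocyte markers (6 of 7) summed to 229 to 253 CPM in LKO and 207 to 218 CPM in flox, with a median of 0.26 and no call, and these sums did not overlap. Among sums of single genes, 5.08% of all genes were without overlap on the high-fat diet. Markers of endothelium, stellate, biliary and lymphoid cells had medians between -0.06 and 0.12 with overlapping sums and no call. Among markers without an HFD interval were Timd4 (Kupffer cells), Krt7 and Krt19 (biliary cells) and Cd8a (lymphocytes). On chow 1 marker interval passed, of Alb (chr5:90449902-90450402, 1.29, edgeR adjusted p = 0.041). The 1 higher HFD interval lay at nearly the same place (chr5:90449866-90450366, 1.42, edgeR adjusted p = 8.96e-08), while 19 of 34 HFD Alb intervals were called lower. LKO mice also carry albumin promoter DNA in the Cre transgene, and its part in these values was not tested. The hepatocyte median on chow was -0.19, beside -0.13 for the gene set. The other lists held no call, with medians between -0.14 and 0.02. Their sums did not overlap for endothelium (502 to 558 CPM in LKO and 572 to 578 CPM in flox) and lymphocytes (93.1 to 111 CPM in LKO and 77.5 to 86.7 CPM in flox). Among sums of single genes, 12.0% of all genes were without overlap on chow. The part of cell composition in the values of the lipid genes was not tested.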

How the data were processed

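The deposited tables, 1 per diet, hold whole-number read counts of each library over 501 bp intervals (mm10). The authors made these counts before deposit. Per the submitters' processing notes, HOMER 4.11, MACS2 2.2.7.1, bedtools, Bowtie2 2.4.2 and Trim Galore 0.6.7 were used; their roles and settings are not stated there. The chow table names its libraries LKO1 to LKO3 and flox1 to flox3, which match the labels by group but not by sample, so chow libraries are numbered as in the table.

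From the counts, each table was fitted by itself in edgeR 4.0.16 (R 4.3.3; TMM factors, quasi-likelihood test, Benjamini-Hochberg over all intervals). The low-count filter removed 0 intervals. SE is the log2 fold change divided by the square root of its F statistic. Counts were also summed per gene and fitted over all genes. Diets were compared as the difference of the 2 genotype effects over intervals overlapping 1 to 1 by at least 50% of their length, in 1 fit. A gene end is within 1000 bp of either gene bound. The fits were tested on simulated counts with known changes. DESeq2 1.42.0, limma 3.58.1 (voom with quality weights), RLE factors, a mean of at least 2 CPM, other distances and overlaps, a replicate block and each library left out were alternatives.

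Library numbers were checked for pairing by correlating the deviations of same-numbered libraries from their group means. The chow correlations were 0.191, 0.535 and 0.193, so pairing by number was clear for number 2 alone. The number was used as a block only as an alternative, and chow p-values are without it unless stated. LKO 2 and LKO 3 correlated best with their own number, and LKO 1 with flox 3. The pairing comes from the table's column names alone. With the block, too, 0 chow intervals and 0 chow gene sums of the set were called.

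Values of every library are given for each gene with a called interval, by its interval of smallest p, and for the 5 genes per table with the largest fold change of summed counts. Genes without a call are given by the most accessible interval within 1000 bp of a gene bound or, where a gene has none, by its most accessible interval, some of them only by the range. The members and lists were chosen with earlier results of these data known. One further call in the list of pathway genes is not reported here.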

Additional observations from a re-analysis of the deposited data

Results flagged for a closer look

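The called Elovl6 interval (chr3:129533595-129534095) held 16.88 CPM in HFD LKO liver 2, apart from the other HFD LKO livers at 13.6 to 14.02 CPM, while HFD flox livers held 16.8 to 28.7 CPM. The gap to its nearest neighbour, as a share of the range of the group, was above Dixon's critical value for a group of 4. Of the groups examined, 26 had 4 libraries, and chance marks about 1 in 20. The cause was not tested.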

How the results depend on the processing

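RLE factors, the filter of at least 2 CPM, assignment within 10000 bp and 80% overlap left every count of called intervals or genes of the set at its reported value wherever they were run. On chow, 0 called intervals became 8 with DESeq2, 9 with limma-voom and 4 without both libraries numbered 2, and 0 to 4 with 1 library left out (4 without flox 2). On the high-fat diet, 14 lower calls became 8 with limma-voom, 25 with the replicate block and 48 without LKO 1 and flox 3 together, a setting chosen after seeing the data, and 3 to 27 with 1 library left out. The 8 higher calls became 2 with limma-voom and 14 with the block, and 0 to 22 with 1 library left out. Summed counts called 1 gene, but 2 with DESeq2, 2 with limma-voom, 8 with the block and 6 without LKO 1 and flox 3 together, and 0 to 3 with 1 library left out. The diet difference, with 0 calls, gave 4 with limma-voom, 1 with the block and 0 to 11 with 1 library left out. The cause of these changes was not tested.

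The HFD numbers did not pair the libraries (correlations of 0.0679, 0.131, 0.178 and -0.0117 for numbers 1 to 4); LKO 2 and LKO 3 correlated best with their own number, and LKO 1 and LKO 4 with another. The chow gene-end median of -0.08 was 0.0891 without both libraries numbered 2 and -0.13 to 0.0540 with 1 library left out; the median of -0.14 over other chow intervals was 0.0330, and -0.27 to 0.0266. The HFD gene-end median of -0.14 was -0.19 with gene ends of 2000 bp and -0.0832 without LKO 3. Chow sums changed sign. Without both libraries numbered 2, the log2 fold change was 0.21 for Scd1, 0.56 for Fasn and 0.28 for Thrsp. With the block it was 0.0912 for Fasn. With 1 library left out it ranged from -0.75 to 0.31 for Scd1, -0.88 to 0.85 for Fasn and -0.68 to 0.34 for Thrsp, positive in each without flox 2.

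With 3 or 4 livers a group, an interval without a call is not shown to be alike in both genotypes.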
